A study of Mus musculus with 8 samples.

Results

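The p53 pathway was followed through 10 mouse genes: the apoptosis genes Pmaip1, Bbc3 and Bax, the stress gene Trp53inp1, the secreted factor Gdf15, the arrest genes Cdkn1a and Ccng1, the feedback regulator Mdm2, and the cell cycle inhibitors Cdkn2a and Cdkn1c. Members were taken as every probe set that the platform annotation gives to one of these genes alone. Of the 10 genes, 8 had such probe sets, 13 in all, out of 12393 genes on 20380 single-gene probe sets. All 8 lay above the 25% of genes with the lowest mean and so were among the 9294 genes tested. Bax and Gdf15 are not analysed here.

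SV (stromal-vascular) cells were taken from the inguinal, subcutaneous white fat of male C57BL/6J mice and turned into adipocytes in culture. They expressed either sh-PRDM16, a short hairpin RNA named for the brown fat co-regulator PRDM16, or the hairpin sh-scr, and were kept with 1 µM rosiglitazone, an agonist of the nuclear receptor PPARγ, or with no agent. The 4 groups were treated sh-PRDM16, untreated sh-PRDM16, treated sh-scr and untreated sh-scr cells, with 2 arrays each, called biological replicates in the labels. The labels do not say whether these came from separate mice or cultures, nor how the hairpins were delivered, so a p-value reflects the spread between arrays, which may be technical.

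p53 is a transcription factor that is stabilised by DNA damage and other stress. It activates genes that halt the cell cycle, such as the kinase inhibitor Cdkn1a, and genes that promote apoptosis, such as the BH3-only proteins encoded by Pmaip1 (NOXA) and Bbc3 (PUMA). It also activates Mdm2, whose product is the ubiquitin ligase that marks p53 for degradation and so closes a feedback loop. Cdkn2a encodes the kinase inhibitor Ink4a and the Mdm2 antagonist Arf, and the imprinted gene Cdkn1c encodes a kinase inhibitor of the same family as Cdkn1a. In fat, p53 activity has been linked to senescence of the stromal cells, and the kinase inhibitors to the exit from the cell cycle that goes with adipocyte differentiation.

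The values were linear array intensities. The array medians were 109 and 121 in treated sh-PRDM16, 122 and 105 in untreated sh-PRDM16, 108 and 101 in treated sh-scr and 127 and 136 in untreated sh-scr arrays. On the log2(intensity + 16) scale, on which all fold changes are given, the median change over all genes was 0.00 for rosiglitazone in sh-PRDM16 cells and -0.31 for rosiglitazone in sh-scr cells. It was 0.15 for sh-PRDM16 against sh-scr with rosiglitazone and -0.16 without. Each result below was therefore also set on arrays centred on their medians. The adipocyte label was borne out by Adipoq, Fabp4, Lpl and Cidec, whose summed intensity was 50820 to 54100 in treated sh-PRDM16, 39210 to 44850 in untreated sh-PRDM16, 55660 to 59530 in treated sh-scr and 55850 to 56610 in untreated sh-scr arrays. RNA of the targeted gene, Prdm16, is not analysed here, so the name sh-PRDM16 rests on the labels.

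Promoter windows from RefSeq on GRCm38.p6, from 250 bases before to 50 bases after each start site, were searched for the p53 consensus. The search used the 10-base p53 consensus element, matched exactly, and the full site of 20 bases made of a pair of adjoining elements, matched with at most 2 mismatches. The element reads the same on both strands, so 1 search covers both. Of 32851 mouse windows of this length, 8.36% held an element and 0.798% held a full site. Among the 10 genes, 7 had windows, 12 in all, of which 4 held an element and 2 held a full site. The 3 windows that hold matches and belong to measured members are printed, and so were picked by their matches. Capitals mark the matches.

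Cdkn1a, chr17:29090729-29091028, plus strand: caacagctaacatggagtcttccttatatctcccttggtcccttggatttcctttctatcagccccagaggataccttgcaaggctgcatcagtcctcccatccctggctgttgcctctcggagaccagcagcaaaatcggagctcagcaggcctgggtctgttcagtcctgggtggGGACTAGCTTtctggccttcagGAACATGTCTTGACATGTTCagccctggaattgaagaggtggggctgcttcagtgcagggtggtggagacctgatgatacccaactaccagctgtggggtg
Ccng1, chr11:40755237-40755536, minus strand: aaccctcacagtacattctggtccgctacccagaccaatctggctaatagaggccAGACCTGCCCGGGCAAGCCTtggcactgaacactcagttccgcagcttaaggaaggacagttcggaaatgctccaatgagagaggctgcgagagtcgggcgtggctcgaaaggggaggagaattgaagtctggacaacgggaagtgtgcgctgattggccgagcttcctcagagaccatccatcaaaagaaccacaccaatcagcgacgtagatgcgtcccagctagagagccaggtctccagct
Mdm2, chr10:117710709-117711008, minus strand: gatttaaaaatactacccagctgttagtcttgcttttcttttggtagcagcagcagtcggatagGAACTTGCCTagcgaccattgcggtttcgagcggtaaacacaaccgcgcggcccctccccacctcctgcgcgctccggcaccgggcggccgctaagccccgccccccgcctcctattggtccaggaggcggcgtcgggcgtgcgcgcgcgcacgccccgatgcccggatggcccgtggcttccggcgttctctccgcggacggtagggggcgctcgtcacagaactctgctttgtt

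The full site of Cdkn1a, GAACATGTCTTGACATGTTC, began 51 bases before the start site, with an isolated element, GGACTAGCTT, 73 bases before it. In Ccng1 the full site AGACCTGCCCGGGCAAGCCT began 195 bases before the start. Each of these full sites departed from the consensus by 1 mismatch and contained 1 exact element, which the search also counted. The Mdm2 window held the single element GAACTTGCCT, 186 bases before the start. The remaining window with an element belonged to Bax. The printed Cdkn1a window is that of the upstream start site, and a second Cdkn1a window, chr17:29093519-29093818, belongs to a start site downstream of it. That second window, all 3 Bbc3 windows and both Cdkn2a windows held no match, which says only that these letters are not in those 300 bases. Promoters of Pmaip1, Trp53inp1 and Cdkn1c are not shown here.

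Of the apoptosis genes, Pmaip1 separated the 2 hairpins and Bbc3 did not. The Pmaip1 probe set had intensities of 337.7 and 398.9 in treated sh-PRDM16 arrays, 430.3 and 365.1 in untreated sh-PRDM16 arrays, 98.1 and 68.1 in treated sh-scr arrays and 232.1 and 198.3 in untreated sh-scr arrays. All 4 sh-PRDM16 arrays, at 337.7 to 430.3, lay above all 4 sh-scr arrays, at 68.1 to 232.1. In order from the top the group means were 397.7 ± 46.1 in untreated sh-PRDM16, 368.3 ± 43.3 in treated sh-PRDM16, 215.2 ± 23.9 in untreated sh-scr and 83.1 ± 21.2 in treated sh-scr cells (SD, n = 2 each). Only the neighbours at the top of that order, the sh-PRDM16 groups, overlapped.

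Bbc3, the other BH3-only gene, had intensities of 120.3 and 112.2 in treated sh-PRDM16, 143.2 and 114.7 in untreated sh-PRDM16, 116.9 and 138.8 in treated sh-scr and 150.4 and 212.2 in untreated sh-scr arrays. The untreated sh-scr arrays were the highest and differed from each other more than any other pair. No comparison of Bbc3 passed the test. Trp53inp1, a stress-induced protein that modulates p53 activity and autophagy, had intensities of 814.0 and 976.5 in treated sh-PRDM16, 1091.4 and 1010.1 in untreated sh-PRDM16, 607.3 and 701.4 in treated sh-scr and 1571.0 and 1431.0 in untreated sh-scr arrays. Its 4 groups did not overlap, with untreated sh-scr cells at the top and treated sh-scr cells at the bottom. A second Trp53inp1 probe set was dim, with group means of 13.9 to 27.5, and had the same order of groups.

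On the deposited scale the arrest and feedback genes Cdkn1a, Ccng1 and Mdm2 shared a low level in treated sh-scr cells. With rosiglitazone in sh-scr cells the median change of all genes was -0.31, and after median centring the change of Mdm2 was 0.01. Cdkn1a had intensities of 5802.5 and 6397.5 in treated sh-PRDM16, 6457.2 and 5599.8 in untreated sh-PRDM16, 4299.9 and 4481.5 in treated sh-scr and 6606.0 and 7004.6 in untreated sh-scr arrays. Both treated sh-scr arrays lay below the other 6 arrays, and the 2 sh-PRDM16 groups overlapped. A second Cdkn1a probe set averaged 3129 ± 16.1 in treated sh-PRDM16, 3114 ± 293 in untreated sh-PRDM16, 2521 ± 312 in treated sh-scr and 3521 ± 94.0 in untreated sh-scr cells (SD, n = 2 each), the same order of groups.

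Ccng1, a cyclin family member induced by p53, had intensities of 6588.6 and 6917.8 in treated sh-PRDM16, 8178.9 and 6851.6 in untreated sh-PRDM16, 5202.9 and 4753.8 in treated sh-scr and 7791.4 and 8086.2 in untreated sh-scr arrays. Again the treated sh-scr arrays were the lowest of the 8, as they were on both further Ccng1 probe sets. Mdm2 had intensities of 968.9 and 1112.1 in treated sh-PRDM16, 997.8 and 877.6 in untreated sh-PRDM16, 725.6 and 654.1 in treated sh-scr and 893.9 and 792.2 in untreated sh-scr arrays. Its treated sh-scr arrays lay below all others too, and untreated sh-PRDM16 and untreated sh-scr arrays overlapped on this probe set. On the second Mdm2 probe set the sh-PRDM16 means, 512.8 ± 26.6 treated and 537.8 ± 31.8 untreated, lay above the sh-scr means, 356.1 ± 61.7 treated and 415.1 ± 10.9 untreated (SD, n = 2 each).

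The inhibitor gene Cdkn2a was dim, with intensities of 63.1 and 69.4 in treated sh-PRDM16, 84.4 and 65.0 in untreated sh-PRDM16, 39.5 and 45.4 in treated sh-scr and 87.6 and 83.1 in untreated sh-scr arrays. The treated sh-scr arrays stood below the other 6. Since 1 probe set carries the Cdkn2a name, its Ink4a and Arf transcripts were not told apart. Cdkn1c had intensities of 195.5 and 217.1 in treated sh-PRDM16, 55.8 and 69.0 in untreated sh-PRDM16, 93.7 and 98.6 in treated sh-scr and 37.7 and 37.8 in untreated sh-scr arrays. None of its 4 groups overlapped, and the treated sh-PRDM16 mean was 5.46 times the untreated sh-scr mean.

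**Figure D1:**
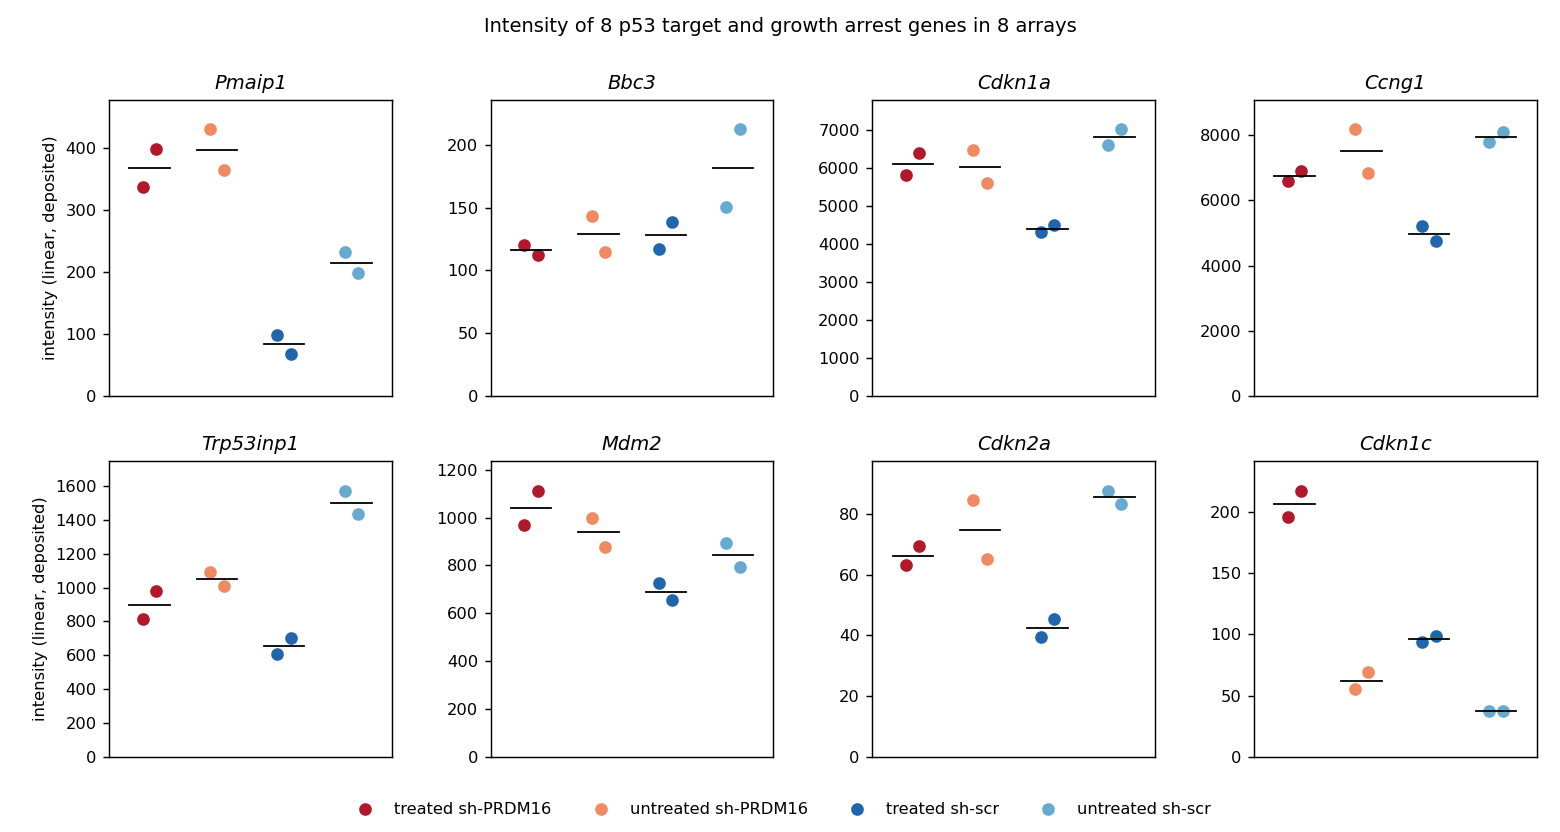
Deposited linear intensity (y axes from 0, scaled per gene) of the 8 measured genes in each array, with points for arrays and bars for the means of 2, grouped as treated sh-PRDM16, untreated sh-PRDM16, treated sh-scr and untreated sh-scr. Pmaip1 lies at 337.7 to 430.3 in the sh-PRDM16 arrays and at 68.1 to 232.1 in the sh-scr arrays, and Cdkn1c peaks at 195.5 and 217.1 in treated sh-PRDM16 cells.

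In sh-scr cells most of the set fell with rosiglitazone. Pmaip1 and Trp53inp1 fell the most, to 83.1 in treated against 215.2 in untreated cells and to 654.3 against 1501, and Cdkn1a, Ccng1 and Cdkn2a fell as well. Cdkn1c alone rose. Of the 8 members 5 fell, where 32.2% of all genes fell, and 1 rose, where 5.2% of all genes rose. The median change was -0.65 for the members and -0.31 for all genes.

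In limma's test, with Benjamini-Hochberg adjustment over all genes, the log2 change was -1.24 ± 0.18 for Pmaip1 (SE, adjusted p = 0.00213), 94th from the bottom of 9294 genes, and -1.18 ± 0.15 for Trp53inp1 (adjusted p = 0.000987). Cdkn2a changed by -0.80 ± 0.15 (adjusted p = 0.00557), Ccng1 by -0.67 ± 0.14 (adjusted p = 0.00801) and Cdkn1a by -0.63 ± 0.13 (adjusted p = 0.00932). Cdkn1c changed by 1.06 ± 0.14 (adjusted p = 0.00119). Mdm2, at -0.28 ± 0.14 (adjusted p = 0.141), and Bbc3, at -0.44 ± 0.18 (adjusted p = 0.079), did not pass. The same 5 genes fell and the same 1 rose after median centring, where 11.9% of genes fell and 14.2% rose. Centring moved the change of Cdkn1a to -0.34, of Ccng1 to -0.38, of Cdkn2a to -0.50 and of Mdm2 to 0.01. Without untreated sh-scr replicate 2 the calls of Cdkn1a (adjusted p = 0.0638) and Ccng1 (adjusted p = 0.052) were lost, and without treated sh-scr replicate 2 that of Ccng1 (adjusted p = 0.0585).

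These arrays hold RNA of whole cultures, so that fewer cells of a type and less RNA per cell cannot be told apart. Markers of other cells also fell with rosiglitazone in sh-scr cells. All 5 smooth muscle and pericyte markers fell, with a summed intensity of 20250 to 21320 in treated and 29080 to 30130 in untreated sh-scr cells. Of 5 tested preadipocyte markers 4 fell, with sums of 7529 to 8531 against 13730 to 14310. Macrophage and leukocyte markers fell in 4 of 7 genes, with sums of 3037 to 3049 against 4740 to 5149, and endothelial markers in 3 of 5, with sums of 328.5 to 367.5 against 555.7 to 737.5. In this comparison 32.2% of all genes fell. After centring, 4 of 5 smooth muscle, 3 of 5 preadipocyte, 2 of 7 macrophage and 1 of 5 endothelial markers fell, beside 11.9% of all genes. The part of these other cell types in the members' changes was not tested.

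Of 11 tested regulators of p53, 3 fell, a share no higher than the 32.2% of all genes: the damage kinases Atm (-0.62 ± 0.17, adjusted p = 0.0228) and Atr (-0.39 ± 0.13, adjusted p = 0.0451) and the adaptor Trp53bp1 (-0.42 ± 0.13, adjusted p = 0.0356). None of these 3 was called after centring. Mdm4, the partner of Mdm2 in restraining p53, had a change of -0.35 that did not pass (adjusted p = 0.0814), and Trp53 itself is not analysed here. Of 30 further p53 targets 14 fell, beside 32.2% of all genes, and 0 rose, with a median of -0.45. After centring 5 fell and 2 rose. The death receptor Fas had intensities of 247.7 and 214.3 in treated against 502.8 and 470.2 in untreated sh-scr arrays, a change of -1.03 ± 0.13 (adjusted p = 0.00107). The groups of Fas did not overlap. The RNA-binding protein gene Zmat3 changed by -0.84 ± 0.17 (adjusted p = 0.00777) and the repair nuclease gene Ercc5 by -0.84 ± 0.14 (adjusted p = 0.00346), and all 3 also fell after centring.

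Of the other kinase inhibitors, 3 of 4 fell, beside 32.2% of all genes. Cdkn2c fell by 0.76 ± 0.14 on the log2 scale (adjusted p = 0.00527), Cdkn1b by 0.48 ± 0.14 (adjusted p = 0.0293) and Cdkn2b by 0.40 ± 0.14 (adjusted p = 0.0473). Centring kept the call of Cdkn2c. Among 11 BCL2 family genes 4 fell, a share near the 32.2% of all genes, among them the BAX-like gene Bok (-0.84 ± 0.17, adjusted p = 0.00764) and the BH3-only genes Bcl2l11 (-0.78 ± 0.17, adjusted p = 0.00974) and Bid (-0.56 ± 0.13, adjusted p = 0.0123). After centring 1 of the 11 fell, Bok. Among 14 G1 genes 6 fell, led by the pocket protein gene Rbl2 (-0.85 ± 0.15, adjusted p = 0.00435), the cyclin Ccnd1 (-0.71 ± 0.16, adjusted p = 0.0124) and the transcription factor E2f1 (-0.71 ± 0.12, adjusted p = 0.00443), and after centring 3 fell and 1 rose. Of 18 proliferation genes 8 fell, beside 32.2% of all genes, with a median of -0.40, and after centring 2 fell.

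In sh-PRDM16 cells Cdkn1c rose with rosiglitazone, and none of the other 7 members passed the test. Cdkn1c averaged 206.3 ± 15.3 in treated against 62.4 ± 9.33 in untreated cells (SD, n = 2 each), a log2 change of 1.51 ± 0.14 (limma, adjusted p = 0.000122), 121st from the top of 9294 genes. So 1 of 8 members rose, where 10.1% of all genes rose, and 0 fell, where 3.31% of all genes fell. The median change was -0.12 for the members and 0.00 for all genes.

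The intervals bound how far the others moved. The 95% interval ran from -0.51 to 0.30 for Pmaip1, from -0.28 to 0.32 for Cdkn1a and from -0.17 to 0.47 for Mdm2. For Trp53inp1 it ran from -0.56 to 0.10, for Ccng1 from -0.46 to 0.16, for Bbc3 from -0.53 to 0.28 and for Cdkn2a from -0.46 to 0.19. Unadjusted p-values of these 7 members were 0.145 or more. Trp53inp1 was the only one of the 7 whose groups did not overlap, at 814.0 and 976.5 treated against 1091.4 and 1010.1 untreated. Around the members, limma called 0 of 11 p53 regulators, 0 of 4 other kinase inhibitors and 0 of 18 proliferation genes, with 0 of each at an unadjusted p under 0.05. Of 30 further p53 targets 1 rose, the autophagy regulator Trp53inp2 (0.73 ± 0.13, adjusted p = 0.00565), and 1 fell, the stress kinase Plk2 (-0.57 ± 0.13, adjusted p = 0.0222). After centring 1 rose and 5 fell. The apoptosis inhibitor Bcl2l1 was the 1 of 11 BCL2 family genes that fell (-0.62 ± 0.16, adjusted p = 0.0356), and the retinoblastoma gene Rb1 the 1 of 14 G1 genes that rose (0.71 ± 0.17, adjusted p = 0.0265).

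**Figure D2:**
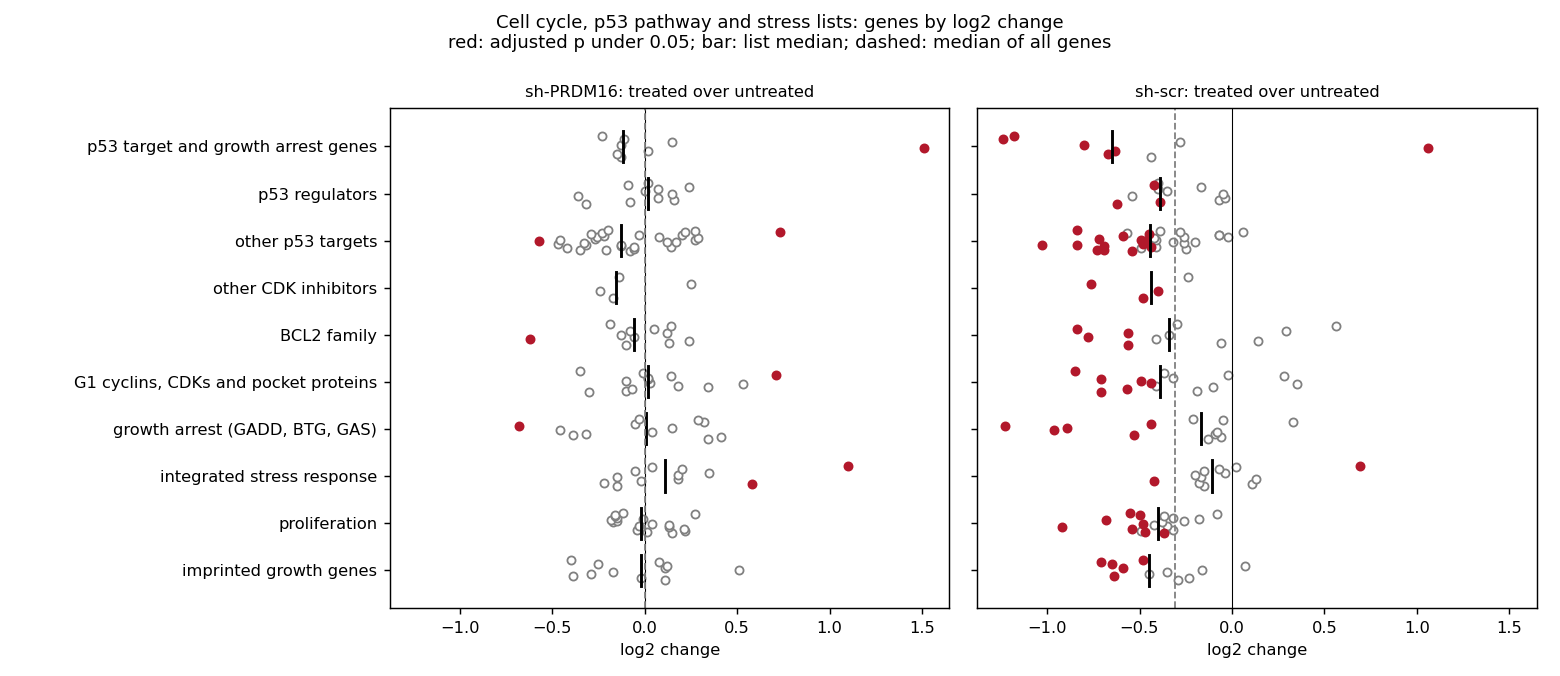
Log2 change with rosiglitazone (x axis) in sh-PRDM16 cells (left) and sh-scr cells (right) for the 8 members and 9 lists, each circle a gene, red where the adjusted p was under 0.05, black bars for list medians and a dashed line for the median of all genes. In sh-scr cells 14 of 30 further p53 targets fell around a median of -0.45, beside a median of -0.31 for all genes, and in sh-PRDM16 cells that list's median was -0.13.

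The difference between the 2 responses was tested directly as an interaction, the change in sh-PRDM16 cells minus that in sh-scr cells. No member passed: 0 of 8 were called, where 0.603% of all genes had a positive and 0.0646% a negative call. In limma's test 6 of 8 members had an unadjusted p under 0.05, beside 2365 of all 9294 genes. After centring 3 of 8 members did, beside 1244 of all 9294 genes. On the deposited scale all 8 differences were positive, as was the median over all genes, 0.33. Those furthest from that median were Pmaip1 at 1.13 ± 0.25 (adjusted p = 0.0804) and Trp53inp1 at 0.95 ± 0.21 (adjusted p = 0.0723). After centring they were 0.82 and 0.64. Cdkn2a differed by 0.66 ± 0.21 (adjusted p = 0.136), Cdkn1a by 0.65 ± 0.19 (adjusted p = 0.128) and Cdkn1c by 0.45 ± 0.19 (adjusted p = 0.189). With a trended prior on the variance 4 members passed, and with the lower 50% of genes left out or a pseudocount of 64 there were 3. At the threshold of 0.05 the 2 responses were thus not shown to differ for any member.

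With rosiglitazone, sh-PRDM16 cells had more Pmaip1 RNA than sh-scr cells by the widest margin of the set. Mean intensity was 368.3 ± 43.3 in treated sh-PRDM16 against 83.1 ± 21.2 in treated sh-scr cells (SD, n = 2 each), and only 3 of 9294 genes had a larger positive change. Cdkn1c, Mdm2, Cdkn1a and Cdkn2a were higher as well. In all 5 of 8 members rose, where 10.6% of all genes rose, and 0 fell, where 4.62% fell. The members' median was 0.48, beside 0.15 for all genes.

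Pmaip1 changed by 1.97 ± 0.18 on the log2 scale, 3.91-fold (limma, adjusted p = 0.000275), and Cdkn1c by 0.99 ± 0.14 (adjusted p = 0.00236). Both calls held in every alternative fit that kept the gene, with Pmaip1 at 1.56 to 2.19. Mdm2 changed by 0.58 ± 0.14 (adjusted p = 0.028), Cdkn2a by 0.49 ± 0.15 (adjusted p = 0.0498) and Cdkn1a by 0.47 ± 0.13 (adjusted p = 0.0438). Ccng1 (0.44 ± 0.14, adjusted p = 0.0593) and Trp53inp1 (0.44 ± 0.15, adjusted p = 0.0707) had non-overlapping groups and did not pass, and Bbc3 had a change of -0.12 ± 0.18 (adjusted p = 0.673). After centring 6 members rose, Ccng1 among them, where 12.3% of genes rose. The calls of Mdm2, Cdkn1a and Cdkn2a were each lost when any 1 of the 4 arrays compared was left out, with adjusted p of 0.0566 to 0.165 for Mdm2, 0.0928 to 0.221 for Cdkn1a and 0.108 to 0.218 for Cdkn2a. Those of Cdkn1a and Cdkn2a were also lost without either untreated sh-scr array (adjusted p = 0.0721 and 0.0735).

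This comparison and the sh-scr rosiglitazone comparison both use the treated sh-scr arrays. On the deposited scale Pmaip1, Trp53inp1, Cdkn1a, Ccng1, Mdm2 and Cdkn2a were lowest in those arrays. Those arrays also had the lowest mean of medians and the highest ratios of 3′ to 5′ actin probe sets, 0.38 and 0.49 on the log2 scale, against 0.33 and 0.34 in treated sh-PRDM16, 0.25 and 0.29 in untreated sh-PRDM16 and 0.32 and 0.30 in untreated sh-scr arrays. The same ratio of Gapdh probe sets was -0.35 in both treated sh-scr arrays and -0.35 and -0.33 in treated sh-PRDM16 arrays. It was -0.40 and -0.45 in untreated sh-PRDM16 and -0.41 and -0.43 in untreated sh-scr arrays. On Gapdh the treated sh-scr arrays were thus near the treated sh-PRDM16 arrays and above the arrays of both untreated groups. The part of RNA integrity in these changes was not tested.

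Proliferation genes were the list with the most calls. Of 18 tested, 16 rose, beside 10.6% of all genes, and 0 fell, with a median change of 1.12. Cdc20, the activator of the mitotic ubiquitin ligase, had intensities of 1661.4 and 1918.2 in treated sh-PRDM16 against 568.5 and 404.2 in treated sh-scr arrays, a change of 1.86 ± 0.18 (adjusted p = 0.000315). Its groups stood far apart. The mitotic cyclin Ccnb2 changed by 1.69 ± 0.13 (adjusted p = 9.94e-05) and the mitotic kinase Aurka by 1.56 ± 0.13 (adjusted p = 0.000127). Among 14 G1 genes 4 rose, led by the S-phase cyclins Ccne2 (1.19 ± 0.21, adjusted p = 0.00667) and Ccne1 (1.10 ± 0.15, adjusted p = 0.00226) and the transcription factor E2f1 (0.86 ± 0.12, adjusted p = 0.00261). RNAs for the arrest gene Cdkn1a and for these cycle genes were thus both higher in treated sh-PRDM16 than in treated sh-scr arrays. The Cdkn1a call was among those lost when an array was left out. Its treated sh-PRDM16 mean was 0.896 times its untreated sh-scr mean.

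Of the further p53 targets 5 of 30 rose, beside 10.6% of all genes, and 1 fell, with a median of 0.22. After centring 4 rose and 3 fell. Named by size on the deposited scale, the rises were led by the stress kinase Plk3 (0.85 ± 0.21, adjusted p = 0.0304), the apoptosome component Apaf1 (0.76 ± 0.15, adjusted p = 0.0118) and the phosphatase Ppm1d, which turns p53 signalling off (0.69 ± 0.16, adjusted p = 0.0224). Plk3 was not called after centring. Among p53 regulators 1 of 11 rose, the checkpoint kinase Chek1 (0.61 ± 0.14, adjusted p = 0.0207), and Mdm4 had a change of 0.45 that did not pass (adjusted p = 0.0668). The other kinase inhibitors split, with Cdkn2b at 286.0 and 337.9 in treated sh-PRDM16 against 535.3 and 607.4 in treated sh-scr arrays, a change of -0.84 ± 0.14 (adjusted p = 0.00554). Cdkn1b rose by 0.57 ± 0.14 (adjusted p = 0.0309). Bok was the 1 of 11 BCL2 family genes to rise (0.78 ± 0.17, adjusted p = 0.0176).

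Without rosiglitazone, Pmaip1 rose, to 397.7 ± 46.1 in untreated sh-PRDM16 against 215.2 ± 23.9 in untreated sh-scr cells, and Cdkn1c rose, to 62.4 ± 9.33 against 37.75 ± 0.0707 (SD, n = 2 each). Trp53inp1 fell, to 1051 ± 57.5 against 1501 ± 99.0. So 2 of 8 members rose, where 1.99% of all genes rose, and 1 fell, where 15.5% of all genes fell. The median change was -0.13 for the members and -0.16 for all genes.

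The log2 change of Pmaip1 was 0.84 ± 0.18 (limma, adjusted p = 0.0127), 64th from the top of 9294 genes, and that of Cdkn1c 0.54 ± 0.14 (adjusted p = 0.025). Both also rose after centring, by 1.02 and 0.72, where 8.8% of genes rose. Leaving out untreated sh-PRDM16 replicate 1 (adjusted p = 0.0627) or untreated sh-scr replicate 2 (adjusted p = 0.0827) ended the Pmaip1 call, and the Cdkn1c call was lost without untreated sh-PRDM16 replicate 2 (adjusted p = 0.107) and without untreated sh-scr replicate 1 (adjusted p = 0.109) or 2 (adjusted p = 0.135). Trp53inp1 changed by -0.51 ± 0.15 (adjusted p = 0.0417), and its call was lost after centring, at -0.32 (adjusted p = 0.12), after quantile normalization, at -0.30 (adjusted p = 0.135), and in all 6 fits without a sh-scr or an untreated sh-PRDM16 array (adjusted p = 0.0509 to 0.197). Cdkn1a (-0.18 ± 0.13), Ccng1 (-0.08 ± 0.14), Mdm2 (0.15 ± 0.14), Cdkn2a (-0.17 ± 0.15) and Bbc3 (-0.43 ± 0.18) did not pass, with adjusted p of 0.134 to 0.728. After quantile normalization Mdm2 rose, by 0.35 (adjusted p = 0.0427).

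**Figure D3:**
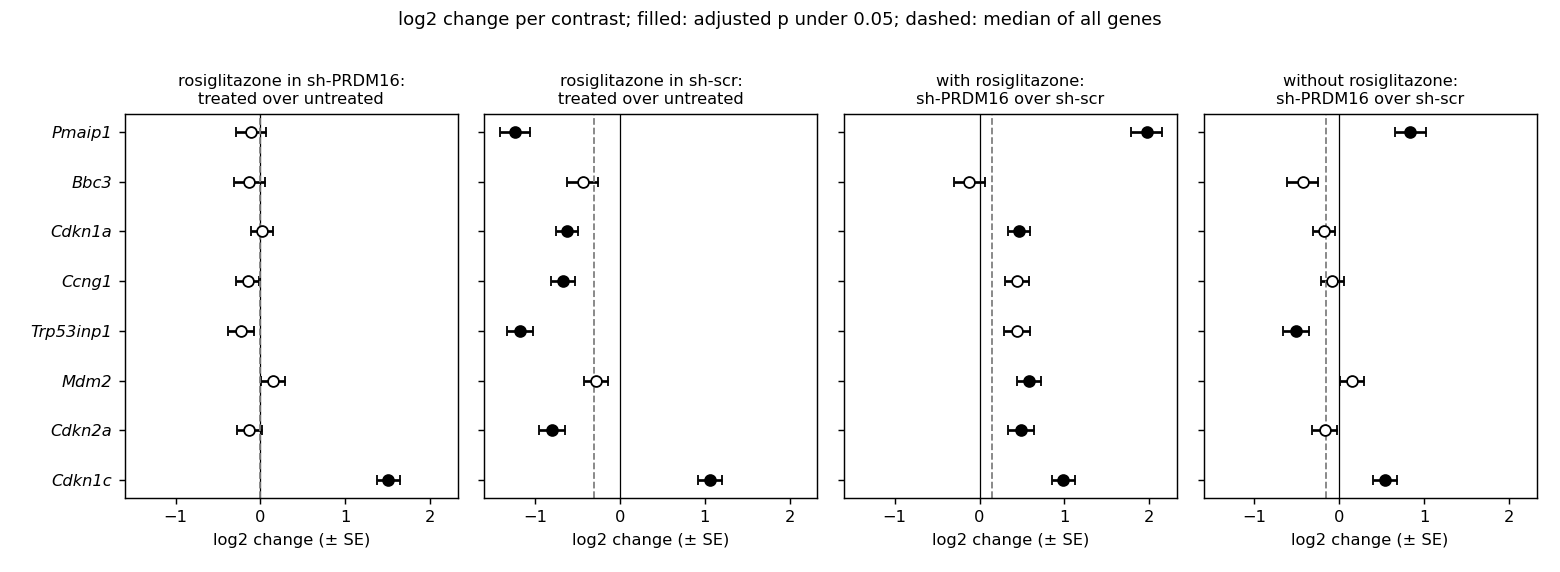
Log2 change ± SE (x axes) of each of the 8 genes in 4 comparisons, from left to right rosiglitazone in sh-PRDM16 cells, rosiglitazone in sh-scr cells, and sh-PRDM16 over sh-scr with and without rosiglitazone, filled where the limma adjusted p was under 0.05, with a dashed line at the median of all genes. Pmaip1 is at 1.97 with and 0.84 without rosiglitazone, and Cdkn1c lies to the right of 0 in all 4 panels.

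Proliferation genes again rose as a group, 12 of 18, beside 1.99% of all genes, with 0 falling and a median of 0.78. The mitotic kinase Plk1 had intensities of 400.6 and 384.3 in untreated sh-PRDM16 against 179.6 and 172.1 in untreated sh-scr arrays, a change of 1.09 ± 0.13 (adjusted p = 0.000677). Aurka changed by 1.04 ± 0.13 (adjusted p = 0.000722) and the proliferation antigen Mki67 by 1.00 ± 0.16 (adjusted p = 0.00366). Among the other kinase inhibitors, 2 of 4 fell, beside 15.5% of all genes, and after centring the other 2 rose. Cdkn2c fell by 1.17 ± 0.14 (adjusted p = 0.000677) and Cdkn2b by 1.01 ± 0.14 on the log2 scale (adjusted p = 0.00154). Cdkn2c had intensities of 1639.2 and 1465.5 in untreated sh-PRDM16 against 3343.9 and 3676.0 in untreated sh-scr arrays. The pocket protein genes Rb1 (-0.83 ± 0.17, adjusted p = 0.0113) and Rbl2 (-0.57 ± 0.15, adjusted p = 0.0256) fell and Ccne1 rose (0.65 ± 0.15, adjusted p = 0.0166), with 1 of 14 G1 genes up and 2 down. After centring 4 rose and 1 fell, and Rbl2 was not called.

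Of 30 further p53 targets 4 fell, beside 15.5% of all genes, and 0 rose, with the median at -0.16, equal to that of all genes. The falls were led by the autophagy gene Dram1 (-0.80 ± 0.14, adjusted p = 0.0058), the antioxidant sestrin Sesn1 (-0.64 ± 0.15, adjusted p = 0.0164) and Trp53inp2 (-0.46 ± 0.13, adjusted p = 0.0389), and after centring 3 rose and 3 fell. Of the p53 regulators, limma called 0 of 11, and 1 had an unadjusted p under 0.05, while after centring 1 rose. Of 11 BCL2 family genes, the BH3-only genes Bad (-0.66 ± 0.13, adjusted p = 0.00796) and Bid (-0.46 ± 0.13, adjusted p = 0.0403) fell, and after centring 1 fell and 1 rose.

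**Figure D4:**
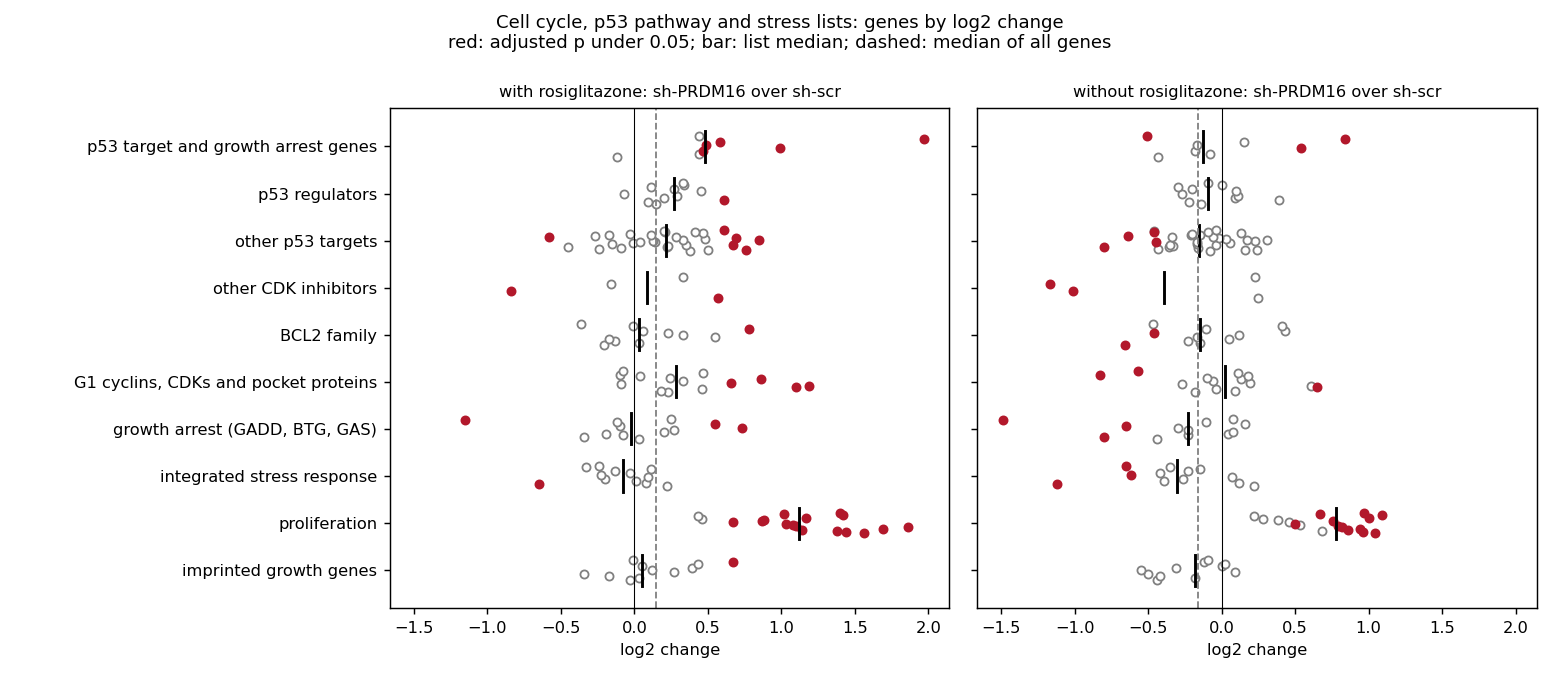
Log2 change of sh-PRDM16 over sh-scr cells (x axis) with rosiglitazone (left) and without (right) for the 8 members and 9 lists, each circle a gene, red where the adjusted p was under 0.05, black bars for list medians and a dashed line for the median of all genes. The proliferation list lies to the right, with a median of 1.12 with and 0.78 without rosiglitazone.

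The hairpin groups also differed in markers of other cells. For sh-PRDM16 against sh-scr, 10.6% of all genes rose and 4.62% fell with rosiglitazone, and 1.99% rose and 15.5% fell without. Of 7 tested macrophage and leukocyte markers, 6 fell in treated and 5 in untreated sh-PRDM16 cells. Their summed intensity was 841 to 902 in treated sh-PRDM16, 1045 to 1110 in untreated sh-PRDM16, 3037 to 3049 in treated sh-scr and 4740 to 5149 in untreated sh-scr arrays. Of 5 smooth muscle and pericyte markers 2 rose with rosiglitazone, with sums of 26050 to 26380 in treated sh-PRDM16 against 20250 to 21320 in treated sh-scr arrays, and 1 rose without, with sums of 27990 to 30170 in untreated sh-PRDM16 against 29080 to 30130 in untreated sh-scr arrays. Of 5 preadipocyte markers 1 rose with rosiglitazone, with sums of 9899 to 10710 against 7529 to 8531, and 2 fell without, with sums of 12280 to 14430 against 13730 to 14310. Their median change with rosiglitazone was -0.03, beside 0.15 for all genes. After centring 1 rose and 2 fell with rosiglitazone, and 1 rose and 1 fell without. Of 5 endothelial markers 1 fell with rosiglitazone and 0 without (1 at an unadjusted p under 0.05). Of 4 adipocyte markers 1 fell with rosiglitazone, Cidec by 0.74 on the log2 scale, and 2 fell without, Cidec by 1.98. The summed mesothelium and mammary epithelium markers were, like Cdkn1c, highest in treated sh-PRDM16 and lowest in untreated sh-scr arrays. The sums were 855.7 to 943.3 in treated sh-PRDM16 and 178.3 to 218.3 in untreated sh-scr arrays. They were 280.0 to 300.1 in untreated sh-PRDM16 and 257.0 to 330.0 in treated sh-scr arrays, groups that overlapped here and not in Cdkn1c. Of the 3 markers of that list that were tested, 1 rose with rosiglitazone in sh-scr cells and in both hairpin comparisons. In sh-PRDM16 cells 2 rose with rosiglitazone, while Msln fell with rosiglitazone in sh-scr cells. With rosiglitazone 5.2% of all genes rose and 32.2% fell in sh-scr cells, and 10.1% rose in sh-PRDM16 cells. The part of these other cells in the members' changes was not tested, and all marker intensities were above 0.

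The genes most like 3 members across the arrays were named by Pearson's r of log2 values over the 8 arrays, as a description, since the arrays share 4 groups. For Pmaip1, whose group means spanned 2.07 on the log2 scale, these were the cytokinesis regulator Ect2 (r = 0.998), the phosphatase Dusp1 (r = 0.996) and the endoplasmic reticulum protein gene Creld2 (r = 0.995). Ect2 had intensities of 192.3 and 210.6 in treated sh-PRDM16, 220.3 and 192.5 in untreated sh-PRDM16, 59.6 and 45.3 in treated sh-scr and 142.5 and 117.3 in untreated sh-scr arrays. For Cdkn1c, with a span of 2.05, they were the sulfotransferase Chst1 (r = 0.988), the cell cycle phosphatase Cdc25a (r = 0.979) and the scavenger receptor Olr1 (r = 0.978). Cdc25a, which acts opposite to the kinase inhibitors, had intensities of 1078.5 and 1263.2 in treated sh-PRDM16, 595.7 and 596.6 in untreated sh-PRDM16, 742.4 and 672.4 in treated sh-scr and 393.2 and 480.7 in untreated sh-scr arrays. For Trp53inp1, with a span of 1.18, they were the F-box gene Fbxo25 (r = 0.986), the interferon receptor Ifnar1 (r = 0.986) and the endotoxin receptor Tlr4 (r = 0.982).

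Where a member had several probe sets, they were also tested each on its own over 15285 probe sets. In sh-scr cells, where 25.4% of probe sets fell, the second Cdkn1a probe set fell with rosiglitazone by 0.48 ± 0.14 on the log2 scale (limma, adjusted p = 0.0359) and the dim Trp53inp1 probe set by 0.54 ± 0.14 (adjusted p = 0.0246). Of the further Ccng1 probe sets 1 fell, by 0.62 ± 0.16 (adjusted p = 0.0221), and the other had a change of -0.44 ± 0.15 that did not pass (adjusted p = 0.0574). For sh-PRDM16 against sh-scr with rosiglitazone, where 6.97% of probe sets rose, the second Mdm2 probe set had a change of 0.52 ± 0.15 (adjusted p = 0.0622) and the second Cdkn1a probe set one of 0.32 ± 0.14 (adjusted p = 0.176). That last Ccng1 probe set rose there, by 0.64 ± 0.15 (adjusted p = 0.0357). With rosiglitazone in sh-PRDM16 cells it had a change of 0.07, beside -0.15 and -0.08 on the other Ccng1 probe sets. For sh-PRDM16 against sh-scr without rosiglitazone it had 0.13, beside -0.08 and -0.14, and none of these 6 values passed. In that last comparison the main Trp53inp1 probe set, tested singly, did not pass (-0.51 ± 0.15, adjusted p = 0.0598), nor did the dim one (-0.13 ± 0.14, adjusted p = 0.599). The second Mdm2 probe set had a change of 0.36 ± 0.15 there (adjusted p = 0.159), and after centring it rose, by 0.55 (adjusted p = 0.0302).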

How the data were processed

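The authors deposited linear array intensity values, all positive, for 22690 probe sets of Affymetrix mouse 430A_2 arrays on 8 arrays. Per the labels' protocols, Trizol RNA was copied with an oligo-dT primer and transcribed into biotin-labelled cRNA. How the values were summarized and normalized is not given in the sources used here, and 22 to 25.2% of values per array were below 16. No array depth applies, and the number of arrays limits precision.

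Groups came from the labels. The deposited intensity was taken as log2(intensity + 16), which understates the change of dim genes. Gene names came from the platform annotation, matched to RefSeq for 12369 of 12393 genes, with 0 symbols changed. Probe sets with several genes (691), with none listed (1555) and control probe sets (64) were left out. The single-gene probe set of highest mean stood for a gene, and the 25% of genes with the lowest mean were left out. In R 4.3.3, limma 3.58.1 was run (lmFit, eBayes) on the 8 arrays together, with group means, 4 residual and 5.31 prior degrees of freedom, and 5 contrasts, two-sided, with Benjamini-Hochberg adjustment over 9294 genes and a threshold of 0.05. A gene is said to rise or fall only where it passed. On simulated data for rosiglitazone in sh-scr cells with 9294 genes, 76.2% of genes changed by log2 1 and 96.3% of those changed by log2 2 were recovered, and 6.1% of calls were false. The simulation changed 200 genes, up or down at random, with no shift over all genes. The real comparison had a median change of -0.31, so these rates need not hold for it.

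The members and lists were chosen with earlier results of these data known. Named are the 10 members with all their probe sets, Mdm4, the 3 called genes with the largest change per list and contrast, and the 3 genes most correlated with each of the 3 members of widest range. Replicate numbers did not pair the arrays, since deviations of same-numbered arrays correlated at -0.02 to 0.05. Alternatives were median centring, quantile normalization, no filter, a filter on 50% of genes, pseudocounts of 1 and 64, a trended prior, the mean of a gene's probe sets, each probe set on its own, a fit of only the 4 arrays compared, a replicate block, leaving out each array and, chosen after seeing the data, centring with the block.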

Additional observations from a re-analysis of the deposited data

Results flagged for a closer look

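The hairpin comparison of 2 members ran in opposite directions with and without rosiglitazone, in groups that did not overlap. The medians over all genes also had opposite signs, 0.15 with and -0.16 without rosiglitazone. The share of all genes with such groups was not counted. Cdkn1a was higher in sh-PRDM16 than in sh-scr cells with rosiglitazone, by 0.47 on the log2 scale, and had a change of -0.18 without it. The difference between these, tested as the interaction, was 0.65 ± 0.19 (SE, limma adjusted p = 0.128). Trp53inp1 had a change of 0.44 with rosiglitazone and of -0.51 without it, and its interaction was 0.95 ± 0.21 (adjusted p = 0.0723). Neither interaction passed. After median centring the Cdkn1a change without rosiglitazone was 0.01, so the opposite sign was seen on the deposited scale only. The dim second Trp53inp1 probe set had changes of 0.29 ± 0.14 with rosiglitazone (limma, adjusted p = 0.21) and -0.13 ± 0.14 without it (adjusted p = 0.599). After centring the latter was 0.05, so on that probe set too the opposite sign was seen on the deposited scale only.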

How the results depend on the processing

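Over 8 members and 5 contrasts, 674 recomputed values kept direction and call, 56 lost and 28 gained a call, and 19 changed sign, none of them a called value; the causes were not tested. The sign changes were Ccng1 (0.10 centred, 0.11 quantile, 0.10 centred with the block, -0.21 to 0.04 with 1 array left out), Cdkn1a (0.01, 0.02 and 0.01 in the first 3 of these) and Cdkn2a (0.02, 0.00, 0.02) for the hairpins without rosiglitazone, Mdm2 for rosiglitazone in sh-scr cells (0.01 centred with or without the block), and in sh-PRDM16 cells Cdkn1a (-0.14 quantile) and, with 1 array left out, Cdkn1a (-0.08 to 0.12), Pmaip1 (-0.22 to 0.01), Cdkn2a (-0.29 to 0.02) and Bbc3 (-0.27 to 0.02).

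Members called for the interaction, 0 in the report, were 3 with a filter on 50% of genes, 3 with pseudocount 64, 4 with a trended prior and 0 to 1 with an array left out. For rosiglitazone in sh-PRDM16 cells there were 2 with quantile normalization, 0 with the 50% filter, which left out Cdkn1c, and 1 with any array left out, and in sh-scr cells 4 to 7. For the hairpins with rosiglitazone there were 2 with no filter, 3 with pseudocount 1, with only 4 arrays, with probe sets tested singly and with the replicate block, which ended the calls of Cdkn1a (adjusted p = 0.0703) and Cdkn2a (adjusted p = 0.0708), and 2 to 6 with an array left out. Without rosiglitazone there were 0 to 3, and the block ended the call of Trp53inp1 (adjusted p = 0.0594) and no other. Calls of Pmaip1, Trp53inp1, Cdkn2a and Cdkn1c with rosiglitazone in sh-scr cells held in every fit that kept the gene.

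Over all genes, the 62 interaction calls became 5 centred, 5 quantile, 1 centred with the block, 0 unfiltered (2402 at an unadjusted p under 0.05), 1037 with the 50% filter, 13 and 800 with pseudocounts 1 and 64, 1297 trended, 24 probe sets and 0 to 73 with an array left out. For rosiglitazone in sh-PRDM16 cells 1245 became 2264 centred, 2486 quantile, 2005 trended, 2086 centred with the block and 641 to 1166 with an array left out, and in sh-scr cells 3474 became 2198 centred with the block and 1084 to 3943. With rosiglitazone the 1410 hairpin calls became 2287 centred, 2323 quantile, 803 unfiltered, 2409 with pseudocount 64, 2609 trended and 492 to 1804, and without it 665 to 1747. Centring also moved the split of rises and falls: 937 and 308 became 1347 and 917 for rosiglitazone in sh-PRDM16 cells, 483 and 2991 became 1322 and 1103 in sh-scr cells, and the hairpin calls changed to 1146 and 1141, against 981 and 429, with rosiglitazone and to 818 and 1170, against 185 and 1439, without.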

Other observations

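Some growth arrest genes outside the p53 set also changed. Tob1, an anti-proliferative protein of the BTG family, had intensities of 1052.8 and 1209.0 in treated sh-PRDM16, 1032.9 and 822.6 in untreated sh-PRDM16, 2416.8 and 2634.3 in treated sh-scr and 2577.5 and 2656.5 in untreated sh-scr arrays. The 4 sh-PRDM16 arrays all lay below the 4 sh-scr arrays. Its change was -1.15 ± 0.15 with rosiglitazone (SE, limma adjusted p = 0.00189) and -1.49 ± 0.15 without (adjusted p = 0.000351). Gas6, a ligand of TAM receptors first found in growth-arrested fibroblasts, fell with rosiglitazone in sh-PRDM16 cells (-0.68 ± 0.14, adjusted p = 0.0122) and in sh-scr cells (-1.23 ± 0.14, adjusted p = 0.000721). In sh-scr cells Gas1 (-0.96 ± 0.14, adjusted p = 0.0021) and Gas2 (-0.89 ± 0.15, adjusted p = 0.00366) fell too, and 5 of 12 tested genes of this list fell in all, beside 32.2% of all genes. After centring 3 fell and 1 rose. Against sh-scr, 2 of 12 rose and 1 fell with rosiglitazone (2 rose and 2 fell after centring), the rises being Gas2 (0.73 ± 0.15, adjusted p = 0.0125) and the transcription factor Klf4 (0.55 ± 0.13, adjusted p = 0.0235). Without it 3 fell and 0 rose (3 fell and 2 rose after centring), among them the transcription factor Foxo1 (-0.80 ± 0.16, adjusted p = 0.0101) and Gas6 (-0.65 ± 0.14, adjusted p = 0.0136).

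Of 12 integrated stress response genes, 1 fell in sh-PRDM16 against sh-scr cells with rosiglitazone, where 4.62% of all genes fell, and 3 fell without it, where 15.5% fell. After centring 4 fell with rosiglitazone, and 3 fell and 2 rose without it. The stress transcription factor Atf3 was lower in sh-PRDM16 cells with rosiglitazone (-0.65 ± 0.14, adjusted p = 0.0179) and without (-1.12 ± 0.14, adjusted p = 0.000895), and the pro-apoptotic factor Ddit3 without (-0.62 ± 0.12, adjusted p = 0.00975). Rosiglitazone raised the lipoprotein receptor Vldlr in sh-PRDM16 cells (1.10 ± 0.14, adjusted p = 0.000762) and in sh-scr cells (0.69 ± 0.14, adjusted p = 0.00726). Among 11 other imprinted growth genes, rosiglitazone lowered 5 in sh-scr cells and raised 0, where Cdkn1c rose and 32.2% of all genes fell. The 5 included Plagl1, a zinc finger regulator of imprinted genes (-0.71 ± 0.16, adjusted p = 0.011), Peg3 (-0.65 ± 0.17, adjusted p = 0.0171) and the adaptor Grb10 (-0.64 ± 0.13, adjusted p = 0.00764), and after centring 3 fell. In sh-PRDM16 cells limma called 0 of these 11 with rosiglitazone, with 3 at an unadjusted p under 0.05, and after centring 2 fell.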
